A study of Rattus norvegicus with 9 samples.

Results

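The regions described here are places where MBD3 was called at baseline in every control animal and was still called in at least 1 animal after amygdala stimulation. Peaks from 7 rats were merged wherever they shared at least 1 bp. A merged region was kept if it lay on chromosomes 1 to 20 or X and had a peak in all 3 sham lists and in at least 1 of the 4 stimulated lists. This left 1535 kept regions out of 176203 merged regions in the series. The regions were thus chosen by the authors' peak calls in the 7 lists, so the values of their peaks are given as descriptions and no test was applied to them.

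All animals were male Sprague-Dawley rats with stimulation and recording electrodes in the left lateral amygdala. The 4 stimulated rats received pulses of 400 µA for 20 min, which evoked status epilepticus, and diazepam at 20 mg/kg to end it. The 3 sham-operated rats had electrodes but no stimulation, and no diazepam is stated for them. Rats were killed on day 14, and the sampled block joined the amygdala with the piriform, perirhinal and entorhinal cortices. The series asks whether binding of MBD3 differed between these animals. Such tissue mixes neurons and glia, so a higher peak cannot be divided into more cells with MBD3 at the site and more MBD3 per cell.

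MBD3 is a core subunit of NuRD, a complex that joins the histone deacetylases HDAC1 and HDAC2 with an ATP-dependent CHD remodeller. The other subunits include MTA, RBBP and GATAD2 proteins. Unlike its relative MBD2, mammalian MBD3 binds methylated CpG poorly, and NuRD with MBD3 is commonly found at active promoters and enhancers, where it tunes transcription. In neurons NuRD is known for silencing promoters during development and after activity.

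The libraries differed in depth along with the groups. Sham libraries held 2436208 to 3668143 filtered ChIP tags and stimulated libraries 4812579 to 17960510. The sham lists shared an input library of 5241067 tags and the stimulated lists one of 33279049. Treatment, ChIP depth and input depth therefore cannot be told apart. Stimulated rats 1 and 3 shared few regions with the sham rats, and 78.3% of the tags sequenced for stimulated rat 3 were duplicates. Without these 2 rats the number of kept regions was again 1535, because every kept region had a peak in stimulated rat 2 or 4. The genome build of the lists was not given in the sources used here, so regions were not assigned to genes and no sequence is shown.

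Nearly all baseline regions were called again in stimulated rat 2 or 4. Of the 1583 regions with a peak in all 3 sham lists, 1535 (97.0%) had a peak in at least 1 stimulated list, with a 95% Clopper-Pearson interval of 96.0 to 97.8%. Such intervals cover counting error only. Over all 176202 merged regions on these chromosomes, 87.2% had a peak in a stimulated list, 0.898% had a peak in all 3 sham lists, and 0.871% met the rule. Since the rule used these calls, nothing is read from that contrast.

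The stimulated rats took very unequal parts in this. Stimulated rat 2 had a peak in 1510 of the kept regions (98.4%), against 61.4% of all merged regions. Stimulated rat 4 had one in 1337 (87.1%), against 36.1% of all merged regions. Stimulated rat 3 had a peak in 84 kept regions (5.47%), against 1.52%, and stimulated rat 1 in 18 (1.17%), against 5.29%. By number, the kept regions thus stand for an overlap of the sham rats with stimulated rats 2 and 4. The lists differed in length, with 9331, 108471, 2692 and 64033 intervals in stimulated rats 1 to 4. Of these intervals 0.214%, 1.46%, 3.42% and 2.31% lay in kept regions, so the share of the list was highest in stimulated rat 3.

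The pattern over the stimulated rats was mostly a peak in rats 2 and 4 together. This pattern held 1222 regions (79.6%). A peak in stimulated rat 2 alone was seen in 198 regions (12.9%) and in stimulated rat 4 alone in 25 (1.63%). Stimulated rats 2, 3 and 4 shared 72 regions, rats 1, 2 and 4 shared 6, and all 4 stimulated rats shared 12. No kept region rested on stimulated rat 1 or 3 alone. Stimulated rats 2 and 4 had the longest lists, with a peak in 61.4% and 36.1% of all merged regions. For stimulated rats 1 and 3 these shares were 5.29% and 1.52%. Among regions with a peak in 0, 1 and 2 sham lists, 14.7%, 16.2% and 44.6% had peaks in both rats 2 and 4. The share of each pattern over all merged regions was not computed, so the patterns are not read as a trait of kept regions.

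Among regions with any sham peak, stimulated rats 2 and 4 had a peak more often where more sham rats had one. Regions without a sham peak must have a stimulated one and were not compared. Among regions with a peak in 1, 2 and 3 sham lists, stimulated rat 2 had a peak in 40.3% of 40631, 69.6% of 5937 and 95.4% of 1583. For stimulated rat 4 the same shares were 24.0%, 52.0% and 84.5%. Stimulated rat 3 had peaks in 0.108%, 0.623% and 5.31%, and stimulated rat 1 in 0.0714%, 0.0337% and 1.14%, which is not an ordered series.

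Height in the sham rats went with recall in the same way. Where the lowest of the 3 sham pileups was 3 tags, 89.2% of 93 regions had a peak in stimulated rat 2 and 65.6% in stimulated rat 4. Pileup is the number of extended tags stacked at the summit. At a lowest sham pileup of 6 to 7 tags the shares were 97.1% and 85.1% of 342 regions. At 12 tags or more stimulated rat 2 had a peak in 350 of 350 regions (95% Clopper-Pearson interval 99.0 to 100%) and stimulated rat 4 in 344 (98.3%). Stimulated rat 3 had a peak in 17.1% and stimulated rat 1 in 4.86% of these tallest regions. Of the 18 kept regions of stimulated rat 1, 17 were among them.

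**Figure D1:**
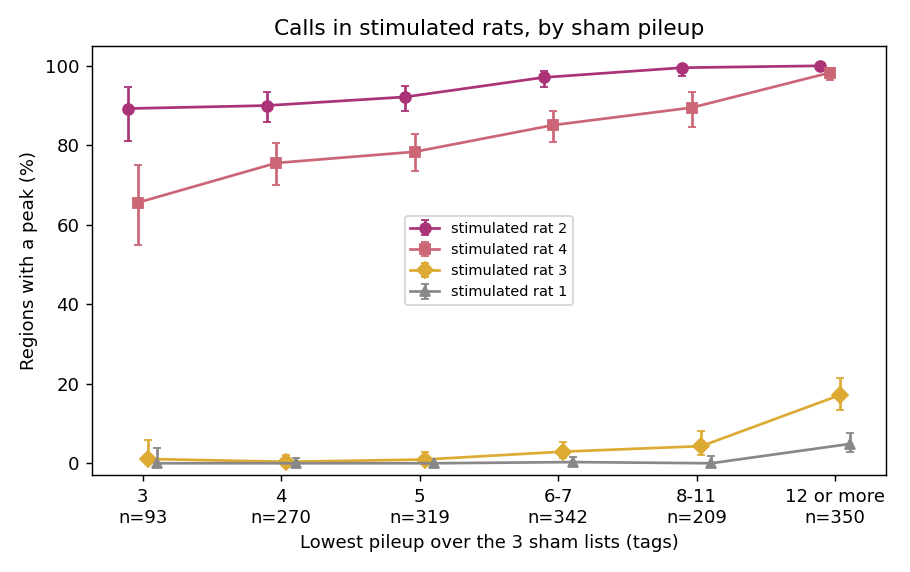
Percent of regions with a peak in all 3 sham lists that also had a peak in each stimulated rat, by the lowest of the 3 sham pileups in tags, with 95% Clopper-Pearson intervals. Stimulated rat 2 runs from 89.2% to 100% and stimulated rat 4 from 65.6% to 98.3%, while stimulated rats 1 and 3 stay at or below 17.1%.

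The edge of the rule is shown by regions just inside and just outside it. The 223 kept regions with a peak in exactly 1 stimulated list had median pileups of 7, 6 and 6 tags in sham rats 1 to 3. The 48 regions with peaks in all sham lists and no stimulated list had 5, 6 and 5 tags. On the other side of the rule, the 4574 regions with a peak in 2 sham lists and a stimulated list had medians of 6, 5 and 5 tags. The 1312 kept regions with peaks in 2 or more stimulated lists had 11, 8 and 8 tags. The medians of the 223 regions thus differed by at most 2 tags from those of the sets outside the rule. The medians of the 1312 regions lay above all of these. For the 4574 regions each median covers only the regions with a peak in that sham list.

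The single regions named on both sides of the edge were picked for high fold enrichment, so those inside are stronger than most of the 223. Just inside, chr17:59247780-59248568 had pileups of 24, 28 and 13 tags in sham rats 1 to 3 and 27 tags in stimulated rat 2, with fold enrichment of 10.4, 14.2, 9.56 and 3.55. At chr7:352587-352811 the pileups were 14, 12 and 15 tags in the sham rats and 28 in stimulated rat 2, with fold enrichment of 11.4, 10.5, 13.2 and 6.53. At chr12:5783898-5784168 they were 22, 16, 10 and 34 tags, with 13.5-, 11.2-, 7.51- and 5.20-fold enrichment. These 3 had the highest fold enrichment of any list among the regions with 1 stimulated list, and all 3 lay within 100 kb of other kept regions. Just outside, chr14:92588852-92589024 had pileups of 7, 7 and 6 tags in the sham rats and no stimulated peak. At chr15:63274388-63274804 the sham pileups were 7, 6 and 6 tags, and at chr2:83741501-83741712 they were 6, 6 and 6 tags.

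Kept regions were wide in comparison with the other regions of the series. Their median width was 401 bp, with quartiles of 287 and 569 bp and a range of 156 to 4289 bp. All merged regions had a median of 168 bp. A region merged from several lists can be no narrower than its widest peak, so width also depends on the number of lists. The 223 regions with 1 stimulated list had a median of 268 bp and those with 2 or more a median of 431 bp. Regions with 2 sham and at least 1 stimulated peak, which like the former were merged from a median of 4 intervals, had a median of 266 bp. The 48 regions without a stimulated peak had a median of 217 bp.

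The single peaks inside kept regions were wide as well. Their median width was 267, 233 and 210 bp in sham rats 1 to 3, where the whole lists had medians of 157, 150 and 150 bp. It was 336 and 312 bp in stimulated rats 2 and 4, against 165 and 165 bp for the whole lists. In stimulated rats 1 and 3 it was 195 and 222 bp, against 166 and 150 bp. More of these peaks held several summits. In sham rats 1 to 3 the share with more than 1 summit was 14.4%, 10.6% and 7.68%, against 1.08%, 1.37% and 1.13% in the whole lists. Stimulated rats 2 and 4 had several summits in 21.9% and 19.3% of these peaks, against 1.13% and 1.36%.

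Kept regions of more than 1000 bp numbered 85, of 105 such regions in the whole series. The 3 widest lay within 1 run on chromosome 1. At chr1:188134858-188139146, 4289 bp wide, pileups were 80, 56 and 49 tags in sham rats 1 to 3 and 99 and 98 tags in stimulated rats 2 and 4. At chr1:188040857-188044847, of 3991 bp, they were 75, 84 and 40 tags in the sham rats and 107, 33 and 103 tags in stimulated rats 2, 3 and 4. At chr1:187918135-187921536, of 3402 bp, they were 56, 55 and 50 tags in the sham rats and 87 and 91 tags in stimulated rats 2 and 4. None of the 3 was called in stimulated rat 1. Raw tags were thus highest in the deeper libraries of stimulated rats 2 and 4 at each of these sites.

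Pileups of kept regions stood above those of their own lists in every rat. Where a rat had several peaks in a region the tallest was taken, which was so in 67 to 116 regions of the sham lists and of stimulated rats 2 and 4. Sham rats 1 to 3 had median pileups of 10, 7 and 7 tags, where the whole lists had medians of 6, 5 and 5 tags. It was 17 tags in stimulated rat 2 and 18 in stimulated rat 4, against 8 and 9 tags. In stimulated rats 1 and 3, where few regions were called, it was 91 and 25.5 tags, against 9 and 6. The tallest kept region reached 175, 165 and 128 tags in the sham lists and 240, 215, 138 and 215 tags in stimulated rats 1 to 4.

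Raw pileups grow with depth, and per 1000000 filtered tags the order of the lists was different. The median per 1000000 tags was 2.73, 2.58 and 2.87 in sham rats 1 to 3, and 2.23 and 1.46 in stimulated rats 2 and 4. It was 5.07 and 5.30 in stimulated rats 1 and 3, over 18 and 84 regions. Stimulated rats 2 and 4 thus lay below the sham rats on this scale. The medians of stimulated rats 1 and 3 cover other regions and cannot be set against the sham medians. Of their 18 and 84 regions, 17 and 60 had a lowest sham pileup of 12 tags or more. Over the 12 regions called in all 7 rats, raw median pileups were 97.0, 90.5 and 70.0 tags in sham rats 1 to 3. In the deeper libraries of stimulated rats 1 and 3 they were 108 and 55.5 tags. Relative to depth, both of these medians were below those of the sham rats. The rule asked for a call in all 3 shallow sham libraries. The lowest pileup of a kept region was 3 tags in each sham list, and 4 and 5 tags in the deeper lists of stimulated rats 2 and 4. The part of the rule and of depth in the order per 1000000 tags was not tested.

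Fold enrichment of kept regions stood less clearly above the lists. Fold enrichment is the pileup divided by the local background, each raised by 1, as the peak caller gave it. The median was 5.85, 5.27 and 5.02 for sham rats 1 to 3, against 4.64, 4.93 and 5.02 over all peaks of each list. For stimulated rats 2 and 4 it was 6.26 and 5.20, against 4.99 and 4.73. In stimulated rats 1 and 3 it was below the list, at 1.82 against 4.07 and 3.48 against 4.67. These are values of peaks within their own lists, and they were read against those lists.

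**Figure D2:**
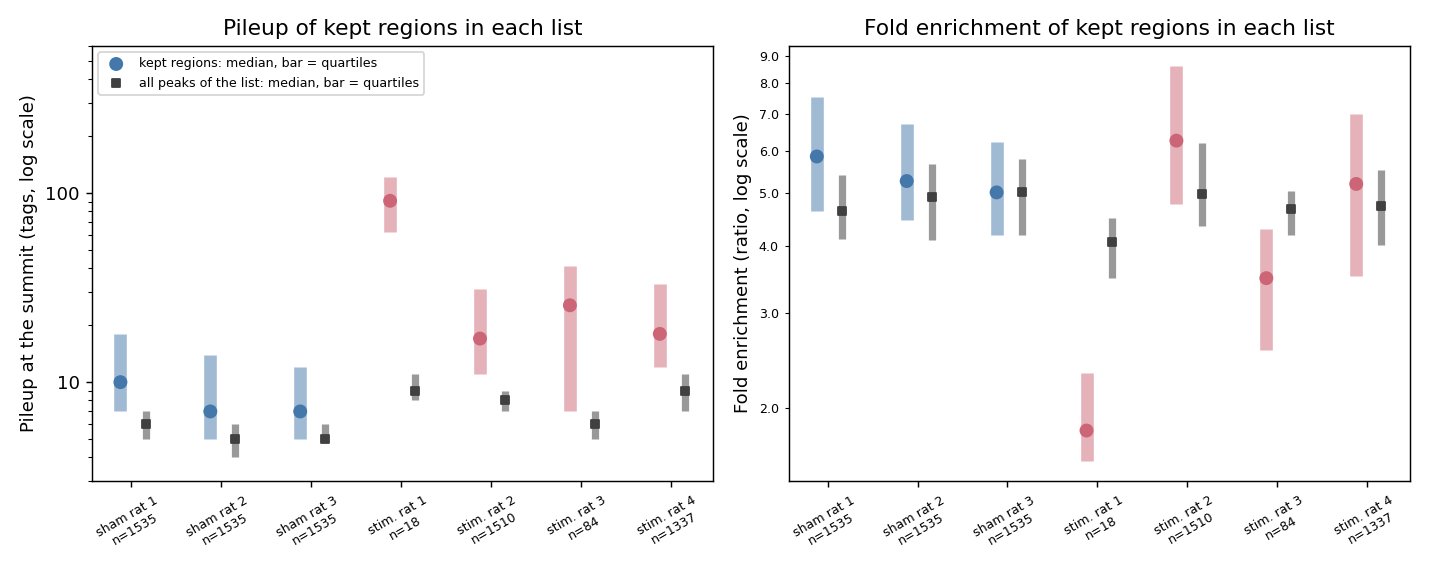
Pileup in tags (left) and fold enrichment (right) of kept regions in each list, on log axes, as median (circle) and quartiles (bar), beside all peaks of the same list (square and grey bar). Pileup of kept regions has a higher median than the list in all 7 rats, whereas fold enrichment is lower than the list in stimulated rats 1 and 3 and equal to it in sham rat 3.

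By p-value, kept regions ranked high in most lists. The median kept region stood at percentile 90.4, 75.8 and 70.0 of the lists of sham rats 1 to 3. It stood at percentile 95.6 in stimulated rat 2 and 92.0 in stimulated rat 4, and at 81.1 and 48.1 in stimulated rats 1 and 3. The strongest 10% of each list held 50.0%, 37.7% and 27.8% of the kept regions in sham rats 1 to 3. In stimulated rats 2 and 4 these shares were 62.3% and 54.3%. A −log10 q of at least 3 was reached by 79.2%, 71.3% and 69.0% of kept regions in the sham lists, against 42.3%, 58.8% and 62.8% of all peaks of these lists, so sham rat 3 lay near its list. It was reached by 44.4%, 93.7%, 31.0% and 87.9% in stimulated rats 1 to 4, against 17.3%, 75%, 17.6% and 66.5%. Kept regions also included weak calls. The lowest −log10 q was 1.05, 1.03 and 1.01 in sham rats 1 to 3.

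Kept regions were also ranked by their smallest fold enrichment over the sham rats and stimulated rats 2 and 4. Since fold enrichment is divided by the local background, this ranking favours sites of low background and is not one of pileup. The 5 highest in it were isolated and 287 to 556 bp wide. Their background was lower than the median of the dense runs described further on. In this ranking chr2:134264702-134264988 came first. Its pileups were 32, 50 and 35 tags in sham rats 1 to 3 and 22, 13 and 44 tags in stimulated rats 2, 3 and 4, with no peak in stimulated rat 1. Its fold enrichment was 19.4, 33.6 and 24.6 in the sham rats and 9.68, 7.50 and 13.9 in stimulated rats 2, 3 and 4. The value of 33.6 in sham rat 2 was the highest fold enrichment of that list. The sham rats lay above the stimulated rats at this site in fold enrichment, and the raw tags of the groups overlapped.

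The next 4 regions by this ranking did not share that order. At chr10:83765190-83765745 fold enrichment was 9.41, 9.88 and 11.9 in the sham rats and 9.60, 4.64 and 9.98 in stimulated rats 2, 3 and 4. At chr10:71791872-71792418 it was 9.68, 10.3 and 13.0, and 12.5, 3.98 and 8.61, in the same order. At chr7:23142394-23142762 it was 9.16, 12.2 and 8.60 in the sham rats and 18.2 and 10.8 in stimulated rats 2 and 4. At chr1:255993940-255994317 it was 10.8, 8.56 and 17.6, and 12.2 and 13.7. In these 4 regions the sham values overlapped those of stimulated rats 2 and 4. None of the 5 had another kept region within 100 kb, and their local background was between 1.00 and 7.14 times the genome-wide rate of tags in every list with a peak.

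Kept regions were unevenly placed along the genome. Of the 1535, 576 (37.5%, 95% Clopper-Pearson interval 35.1 to 40.0%) had another kept region within 100 kb, and 402 (26.2%) had one within 10 kb. The median gap to the nearest kept region was 272 kb. The 4574 regions with peaks in 2 sham lists and a stimulated list had a neighbour of their own kind within 100 kb in 35.7% of cases. None of the 48 regions without a stimulated peak had one of its own kind. The number of regions in a set bears on this measure, so the sets were not compared further.

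Linking kept regions that were at most 100 kb apart gave 959 single regions, 91 runs of 2 to 4 regions and 17 dense runs of 5 or more. The dense runs held 372 regions (24.2%). The limit of 5 was chosen after the runs were seen. The longest run lay at chr1:187444591-188353565, with 143 kept regions in 909 kb, which was 69.8% of the 205 merged regions in that span. The next, at chr13:38608571-38962677, had 62 in 354 kb, or 79.5% of 78. The third, at chr1:188913779-189042946, had 27 in 129 kb, or 79.4% of 34. These 3 runs held 232 of the kept regions (15.1%).

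In the 3 longest runs 135 of 143, 60 of 62 and 27 of 27 regions were called in stimulated rats 2 and 4 together. Of all kept regions 1312 (85.5%) were called in both. The joint share was 14.7%, 16.2%, 44.6% and 82.9% among merged regions with a peak in 0, 1, 2 and 3 sham lists. Taken singly, over all merged regions, stimulated rat 2 had a peak in 61.4% and stimulated rat 4 in 36.1%. Stimulated rat 3 had peaks in 28, 7 and 4 regions of these runs and stimulated rat 1 in 4, 2 and 0. Their shares were 5.47% and 1.17% of all kept regions, and 1.52% and 5.29% of all merged regions. Median pileups in the longest run were 42, 35 and 23 tags in sham rats 1 to 3, 63 in stimulated rat 2 and 63 in stimulated rat 4. In the chromosome 13 run they were 32.5, 30 and 16 tags in the sham rats and 53.5 and 54.5 in stimulated rats 2 and 4. Both runs thus stood above the medians of all kept regions in each of these lists. The other 14 dense runs lay on chromosomes 1, 2, 3, 7, 12, 14, 15, 17, 18 and 20.

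Chromosome 1 held 319 kept regions, 20.8% of them, against 10.3% of all merged regions. Of these 319, 176 were in dense runs, and outside dense runs chromosome 1 held 12.3% of the kept regions. Chromosome 13 held 106 (6.91%, against 4.81%), 62 of them in 1 dense run, and 3.78% outside dense runs. The higher shares of these chromosomes therefore came mainly from their dense runs. Outside dense runs the share of a chromosome ranged from 0.695 times that of all merged regions on chromosome 5 to 1.35 times on chromosome 9. The X chromosome held 11 kept regions (0.717%, against 1.14% of all merged regions). Within 5 Mb of the outermost peaks of a chromosome lay 7.56% of kept regions (95% Clopper-Pearson interval 6.28 to 8.99%), and the share of all merged regions was 6.98%. For kept regions outside dense runs the share was 8.60% (95% Clopper-Pearson interval 7.05 to 10.4%). These intervals take regions as independent, although kept regions cluster. Dense runs were left out of the kept regions only, so the differences from 6.98% were not tested.

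**Figure D3:**
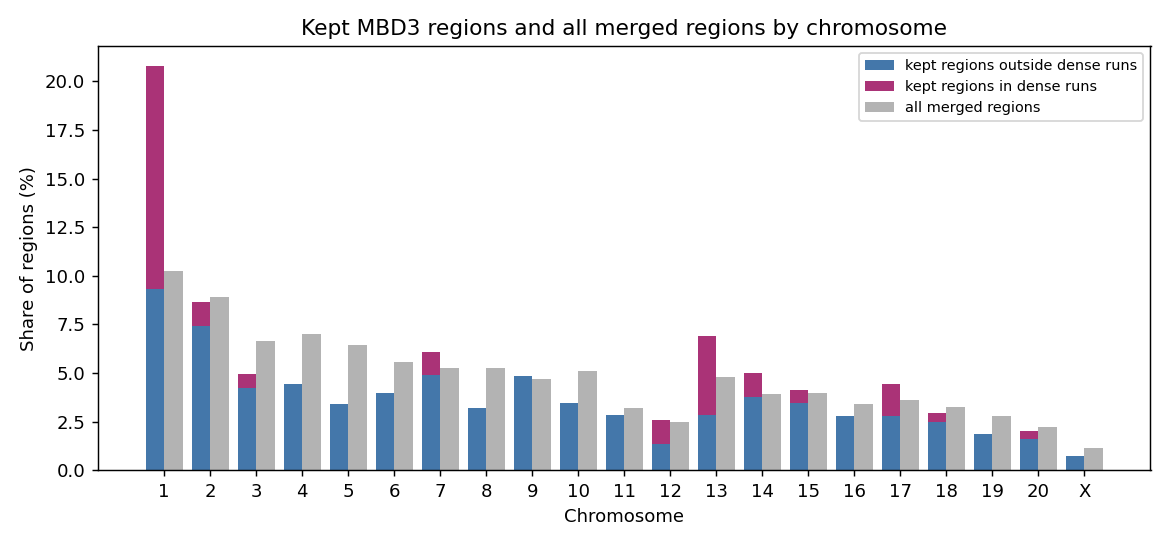
Share of kept regions on each chromosome in percent, split into regions in dense runs of 5 or more and the others, beside the share of all merged regions (grey). Chromosome 1 holds 20.8% of kept regions and 10.3% of all merged regions, and 176 of its 319 kept regions are in dense runs.

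Regions in dense runs were taller and wider than the others. Their median width was 591 bp, against 371 bp for the 1163 kept regions outside dense runs, and 65 of the 85 regions over 1000 bp were in them. Their median pileup was 31, 27 and 16 tags in sham rats 1 to 3, against 8, 6 and 6 outside. It was 48.5 tags in stimulated rat 2 and 49 in stimulated rat 4, against 14 and 15. In stimulated rat 1 it was 92 tags over 13 regions, against 69 over 5, and in stimulated rat 3 it was 34 over 44 regions, against 7 over 40. Pileups were higher in dense runs in 7 of 7 lists.

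Fold enrichment did not follow pileup in the stimulated lists. In sham rats 1 to 3 its median was 6.47, 6.82 and 5.13 in dense runs and 5.48, 4.93 and 5.02 outside, so dense runs were higher by factors of 1.18, 1.38 and 1.02. In stimulated rats 2 and 4 the median was 4.52 and 2.82 in dense runs and 7.11 and 5.99 outside, factors of 0.636 and 0.470. In stimulated rat 3 it was 2.59 and 4.18, and in stimulated rat 1 it was 1.80 and 2.33, factors of 0.621 and 0.771. The factor was above 1 in 3 of 3 sham lists and below 1 in 4 of 4 stimulated lists, although sham rat 3 lay close to 1. This is a ratio inside each list, and the difference between the groups was not tested. Without any kept region of chromosomes 1 and 13 it was 1.14, 1.34 and 1.00 in sham rats 1 to 3 and 0.821, 0.655, 0.662 and 0.485 in stimulated rats 1 to 4.

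The local background used for fold enrichment was higher in dense runs in 7 of 7 lists. It was estimated from the input library of the group. In dense runs its median was 11.9 times the genome-wide rate in each of the 3 sham lists, and 36.0, 16.3, 30.7 and 16.5 times in stimulated rats 1 to 4. Outside dense runs it was 1.61, 1.71 and 1.43 times for sham rats 1 to 3 and 30.0, 1.50, 1.87 and 1.50 times for stimulated rats 1 to 4. The factor between dense runs and the rest was 6.94 to 8.33 in the sham lists and 10.9, 16.4 and 11 in stimulated rats 2, 3 and 4. In stimulated rat 1, with 13 regions in dense runs and 5 outside them, it was 1.20, below the sham lists. The part of the background in the factors of fold enrichment was not tested. The input of the stimulated lists was deeper than that of the sham lists, so input and treatment cannot be told apart here.

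**Figure D4:**
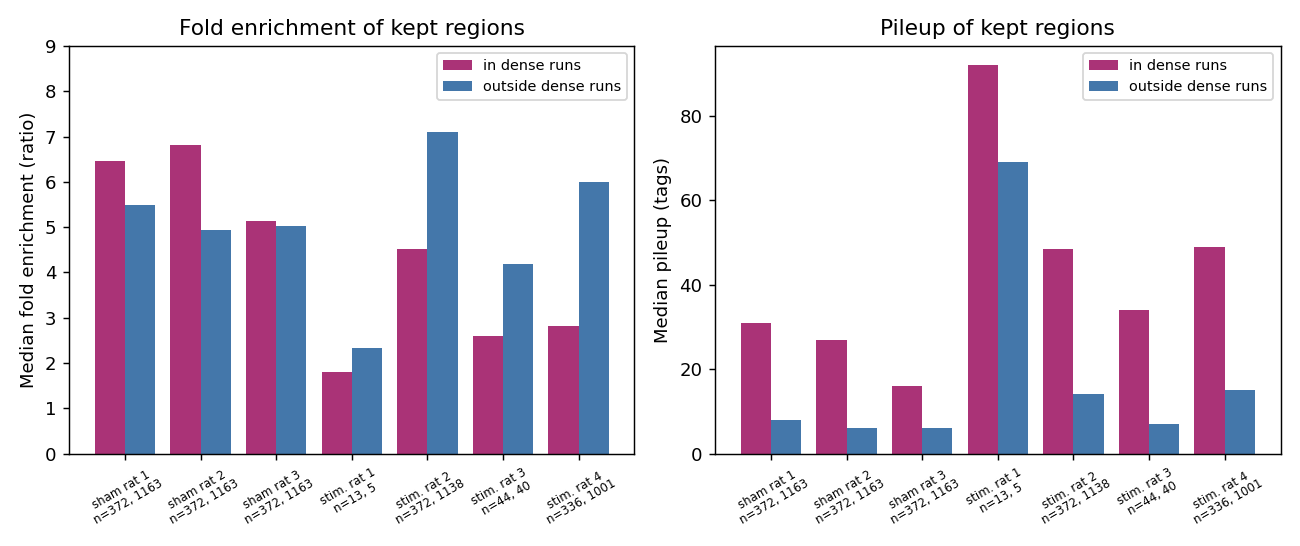
Median fold enrichment (left, a ratio) and median pileup in tags (right) of kept regions in dense runs and outside them, in each list. Pileup is higher in dense runs in all 7 lists, while fold enrichment is higher in dense runs in the 3 sham lists and lower in the 4 stimulated lists.

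The order of the kept regions by pileup was alike across rats, whichever group they belonged to. Spearman's correlation of pileup over the kept regions was 0.74 to 0.79 for the 3 pairs of sham rats and 0.86 for stimulated rats 2 and 4. For the 6 pairs of a sham rat with stimulated rat 2 or 4 it was 0.78 to 0.84. These are correlations across 1312 to 1535 regions, which are not independent replicates and share places prone to high pileups. Outside dense runs the values were 0.54 to 0.60, 0.74 and 0.61 to 0.70. With stimulated rat 3, over 84 regions, the correlation of pileup was 0.88 to 0.90 for the sham rats.

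The order by fold enrichment was shared mainly by rats of the same group. Spearman's correlation was 0.24 to 0.41 within sham rats and 0.72 between stimulated rats 2 and 4, but −0.20 to 0.14 between a sham rat and stimulated rat 2 or 4. Outside dense runs it was 0.21 to 0.30, 0.55 and 0.03 to 0.18. The local background had a correlation of 0.92 to 0.94 within sham rats and 0.95 between stimulated rats 2 and 4, whose lists share an input within each group. Between groups, with different inputs, it was 0.71 to 0.74. The part of the shared input in the order of fold enrichment was not tested.

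The summits lay at nearly the same place in both groups. The distance between the summits of the tallest peaks had a median of 30 to 34 bp within sham rats and 24 bp between stimulated rats 2 and 4. Between a sham rat and stimulated rat 2 or 4 it was 28 to 33 bp. Summits were within 50 bp of each other in 61.7% to 65.0% of kept regions for sham pairs and in 61.9% to 67.2% for pairs between groups. With stimulated rat 3 the median was 38 to 57 bp for the sham rats, over 84 regions. A shared position is partly set by the rule, since peaks had to overlap or be linked by another peak.

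Only 12 kept regions had a peak in every one of the 7 rats. They were tall in raw tags, with median pileups of 97.0, 90.5 and 70.0 in sham rats 1 to 3 and 108, 132, 55.5 and 128 in stimulated rats 1 to 4. Of the 12, 9 lay in dense runs. They were 3 regions of the longest run on chromosome 1, 2 of the run on chromosome 13, 2 at 1 place on chromosome 7, and 1 each on chromosomes 14 and 20. The other 3 were single regions on chromosomes 3, 8 and 12. Their local background was between 17.2 and 307 times the genome-wide rate over all 7 lists.

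The one of the 12 that was tallest in the sham lists and in stimulated rats 2 and 4 shows the range of values at such a site. At chr1:188256182-188256869 pileups were 175, 165 and 128 tags in sham rats 1 to 3 and 165, 215, 67 and 215 tags in stimulated rats 1 to 4. Its fold enrichment was 5.19, 6.41 and 5.65 in the sham rats and 1.52, 4.92, 2.05 and 2.84 in the stimulated rats. The sham values lay above all 4 stimulated values in fold enrichment and within their range in raw tags. The widest of the 12, chr13:38637810-38640547, had pileups of 102, 94 and 86 tags in the sham rats and 92, 124, 60 and 124 tags in the stimulated rats, with fold enrichment of 2.70, 7.99 and 3.39, and 1.76, 5.54, 3.55 and 3.41. Its groups overlapped on both scales.

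The 3 single regions called in all rats had high background in both inputs. At chr3:43082-43612 pileups were 107, 120 and 71 tags in the sham rats and 240, 208, 138 and 176 tags in stimulated rats 1 to 4, over a background of 107 to 307 times the genome-wide rate. At chr8:110210312-110210792 pileups were 76, 69 and 53 tags in the sham rats and 69, 102, 42 and 104 tags in the stimulated rats. Fold enrichment there was 4.70, 5.64 and 3.21 in the sham rats and 1.58, 5.03, 3.27 and 3.30 in the stimulated rats. At chr12:1488487-1488787 pileups were 28, 49 and 37 tags in the sham rats and 150, 90, 63 and 114 tags in the stimulated rats, and fold enrichment ranged from 2.33 to 3.57 over the 7 rats.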

How the data were processed

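The data were MBD3 ChIP-seq peak lists of 7 rats, 3 sham-operated and 4 stimulated, grouped by the treatment label. MACS2 2.1.0.20141030, Bowtie 1.0.0 and cutadapt 1.7.1 are named in the submitters' processing notes. Per the file headers, the authors called peaks per rat with the group's input as control, extended tags to 150 bp, kept 1 tag per position, used a q threshold of 0.1 and set the effective genome size to 1.87 Gb, the mouse preset. The deposited pileup is a signal in tags and the deposited fold enrichment a ratio. The deposited −log10 p and −log10 q were used to rank and filter peaks. Depth is the filtered tag total per the file headers.

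Intervals with the same start and end in a list were counted once, and lists were merged (Python 3.11.15, pandas 2.3.3, scipy 1.17.1). Where a rat had several peaks in a region, the tallest gave its values. The local background was recovered as pileup + 1 over fold enrichment, minus 1, and set against filtered tags times 150 bp over 1.87 Gb. Merging was tested on simulated data. The mitochondrial region was left out.

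Positions count from 1, as deposited. Peaks passed the last GRCr8 gene on 13 of 21 chromosomes, so the gene table was not used. Named regions are those called in all 7 rats, the 5 with the highest lowest fold enrichment over the sham rats and stimulated rats 2 and 4, the 3 widest, the 3 longest runs, and 3 on each side of the rule's edge. The rule and the lists were chosen with earlier results of these data known. Alternatives were peaks with a −log10 q of 3 or more, peaks with 4-fold enrichment or more, gaps of 500 bp, 50% overlap, equal lists, regions over 1000 bp left out, and each rat left out. Leaving out stimulated rats 1 and 3 together and asking for 2 stimulated lists were added after seeing the data.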

Additional observations from a re-analysis of the deposited data

Results flagged for a closer look

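Among 10 measures of kept regions compared over the 4 stimulated rats, 1 set a single rat apart. The criterion used flags about 1 group in 20 by chance, and these measures share the same regions. The median pileup of kept regions was 91 tags in stimulated rat 1, over 18 regions, against 25.5 tags in the nearest other stimulated rat. These medians cover different regions in each rat. Over the 12 regions called in all 7 rats, stimulated rat 1 was not set apart in raw tags. Its median there was 108 tags, between 55.5 in stimulated rat 3 and 132 and 128 in stimulated rats 2 and 4. Raw tags grow with depth, and its library was the deepest. In median fold enrichment over these 12 regions it was the lowest, at 1.72, against 4.08, 3.27 and 2.73 in stimulated rats 2 to 4.

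Fold enrichment in dense runs relative to the other kept regions went in opposite directions in the groups. The factor was 1.18, 1.38 and 1.02 in sham rats 1 to 3, and 0.771, 0.636, 0.621 and 0.470 in stimulated rats 1 to 4. Sham rat 3 lay close to 1. The factor rests on 13 and 5 regions in stimulated rat 1, and on 44 and 40 in stimulated rat 3. The difference was not tested, and each group had its own input, so input and treatment cannot be told apart. With runs of 3 or more regions the factor was 1.20, 1.39 and 1.03 for the sham rats and 0.771, 0.653, 0.622 and 0.487 for the stimulated rats. With runs of 10 or more it was 1.15, 1.40 and 1.02, and 0.729, 0.640, 0.627 and 0.479.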

How the results depend on the processing

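No paired analysis was possible because the rat numbers in the labels are not shared between groups. The number of kept regions depended on the peak threshold. With a −log10 q of at least 3 it was 681, with 667, 583, 23 and 8 of them called in stimulated rats 2, 4, 3 and 1, and 47.7% had a neighbour within 100 kb. With at least 4-fold enrichment it was 971, with 945, 653, 19 and 0 called in the same rats, a kept share of 89.2% and 32.0% with a neighbour. With the 2696 strongest peaks of each list it was 277, with 267, 211, 52 and 11 called in these rats, a kept share of 82.2%, a median width of 543 bp and 66.4% with a neighbour. All members under these 3 settings lay in kept regions of the report. Merging across gaps of up to 500 bp gave a median width of 444 bp and 32.4% with a neighbour. Without regions over 1000 bp, stimulated rat 1 had a peak in 11 kept regions, and 34.9% had a neighbour. Asking for 2 stimulated lists gave a kept share of 82.9% and a median width of 431 bp.

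Leaving out 1 rat gave 1335 to 3714 kept regions. The number was 2072, 3413 and 3714 without sham rats 1, 2 and 3, where fewer lists must hold a peak, and 1335 and 1508 without stimulated rats 2 and 4, where fewer lists can meet the rule. The kept share was 83.5% to 97.0%, the median width 305 to 401 bp and the share with a neighbour 33.1% to 37.9%. Regions called numbered 18 to 20 in stimulated rat 1, 1508 to 3497 in rat 2, 83 to 104 in rat 3 and 1335 to 2792 in rat 4. Of 114 alternative values, 72 stayed within 1.5 times a count, the interval of a share or 1 SD of a width, and no value carried a test. The part of depth in which regions were called was not tested. Among the sham lists, length was in the order of depth. Sham rats 1 to 3, with 3668143, 2718183 and 2436208 tags, had 31855, 13891 and 12051 intervals. Among the stimulated lists it was not in that order. Stimulated rat 1, with 17960510 tags, had 9331 intervals, and stimulated rat 2, with 7631096, had 108471.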
